A study of Mus musculus with 2 samples.

Results

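Rian, Mirg and Meg3 are the 3 abundant noncoding RNAs of the imprinted Dlk1-Dio3 locus on mouse chromosome 12, and they are described here across barcodes of liver that had received adeno-associated virus (AAV). They are 3 of the 32287 features counted, picked by symbol, and they were picked because they were high in one of the libraries. Their levels by library and by EGFP, their concentration in few barcodes and their co-detection are therefore a description, and nothing is supported with them. The samples were livers of wild-type (WT) C57BL/6J mice given AAV-shBicd2, or AAV-scramble as its control, at 4 weeks of age. Bicd2 encodes an adaptor between cargo and the dynein motor. All mice received concanavalin A (Con A) into a vein at 15 mg/kg 3 weeks after the virus, and livers were taken 6 hours later. Con A, a plant lectin, stimulates T cells and so inflames the liver. Each group is 1 library of droplet barcodes, prepared with a 10x 3′ kit of version 3.1, so no difference between libraries has a replicate check and none is tested. The number of mice behind a library is not stated. EGFP, a fluorescent reporter, is among the counted features, and which AAV carried it is not stated either.

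The Dlk1-Dio3 locus is imprinted: the protein-coding genes Dlk1, Rtl1 and Dio3 are read from the chromosome inherited from the father, and the noncoding RNAs Meg3, Rian and Mirg from the one inherited from the mother. The noncoding RNAs lie head to tail on the same strand. Meg3 is a long nuclear RNA known as a tumour suppressor in human cells, Rian carries small nucleolar RNAs in its introns, and Mirg hosts many microRNAs. The locus is more active in fetal than in adult mouse liver. Rian is also a known place of AAV integration in mouse liver tumours, around the microRNA hairpin Mir341, but no integration site was measured in these libraries.

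In GRCm38 coordinates, Meg3 (ENSMUSG00000021268) spans chr12:109541001-109571726, Rian (ENSMUSG00000097451) spans chr12:109603940-109661716 and Mirg (ENSMUSG00000097391) spans chr12:109729764-109749460, all on the plus strand. The annotation gives 11 transcripts for Meg3, 20 for Rian and 12 for Mirg. Their start windows are shown because the RNAs tended to be found in the same barcodes. Each window runs from 250 bases before a RefSeq start to 50 bases from it (GRCm38.p6, plus strand, 5′ to 3′), at chr12:109540746-109541045 for the first start of Meg3, chr12:109603695-109603994 for Rian and chr12:109734731-109735030 for Mirg. Capitals mark the cAMP response element TGACGTCA (CRE), the TATA box letters TATAAA and the CCAAT box letters CCAAT, each searched on both strands.
Meg3: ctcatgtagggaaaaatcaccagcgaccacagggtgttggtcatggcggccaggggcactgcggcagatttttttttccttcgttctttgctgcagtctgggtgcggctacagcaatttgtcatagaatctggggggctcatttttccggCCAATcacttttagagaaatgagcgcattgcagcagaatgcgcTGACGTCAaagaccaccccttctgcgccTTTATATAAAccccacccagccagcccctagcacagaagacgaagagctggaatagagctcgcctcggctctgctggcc
Rian: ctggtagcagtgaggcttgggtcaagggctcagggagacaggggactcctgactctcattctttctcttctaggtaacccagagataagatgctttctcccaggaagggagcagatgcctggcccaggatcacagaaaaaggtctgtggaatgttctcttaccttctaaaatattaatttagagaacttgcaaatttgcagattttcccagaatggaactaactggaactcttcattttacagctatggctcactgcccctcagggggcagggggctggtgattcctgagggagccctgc
Mirg: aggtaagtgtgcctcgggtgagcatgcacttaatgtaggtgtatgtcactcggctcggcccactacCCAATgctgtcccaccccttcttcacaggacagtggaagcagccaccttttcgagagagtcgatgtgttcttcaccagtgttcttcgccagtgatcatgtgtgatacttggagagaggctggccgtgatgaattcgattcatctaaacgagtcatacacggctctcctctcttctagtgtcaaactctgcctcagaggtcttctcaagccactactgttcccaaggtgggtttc
The Meg3 window holds a CCAAT box 100 bases before the start, a CRE 57 bases before it, and TATAAA 25 bases before it, with an overlapping match on the other strand. In the human MEG3 gene such a CRE is known to bind the factor CREB. The second RefSeq start of Meg3 (window chr12:109545148-109545447) has none of the 3 motifs. For Mirg the annotations differ: its RefSeq start lies inside the span given above, and the window covers the hairpins Mir668 and Mir485 of Mirg. It holds a CCAAT box 184 bases before the RefSeq start and neither of the other motifs, and in the Rian window none of the 3 was found. Of 32851 RefSeq start windows of the same length, 1.79% hold the CRE, 13.6% TATAAA, 37.4% CCAAT and 0.17% both the CRE and TATAAA. These matches are a description of letters and no binding was measured.

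The locus also carries microRNAs, which a kit that primes on poly-A tails does not count. Between the start of Meg3 and the end of Mirg, RefSeq lists 57 hairpins with 107 mature microRNAs. Of the hairpins, 3 lie in introns of Rian, 14 within Mirg, 1 in an exon of Meg3 and 39 in none of these. The 107 mature microRNAs have 97 different seeds (bases 2 to 8), of which 10 are shared by a pair. The ones below show a hairpin at the known AAV integration site inside Rian (mmu-miR-341-3p), and the seed that an intronic microRNA of Rian shares with one outside the 3 genes and the seed shared by a pair inside Mirg, with the seed in capitals (RefSeq).
mmu-miR-341-3p: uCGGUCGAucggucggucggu
mmu-miR-370-5p: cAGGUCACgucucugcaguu
mmu-miR-1193-3p: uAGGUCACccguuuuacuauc
mmu-miR-453: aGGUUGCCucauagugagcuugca
mmu-miR-496a-5p: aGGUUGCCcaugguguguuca

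The libraries were alike in depth. The shBicd2-labelled library kept 2941 barcodes at a median of 1498 UMIs, and the scramble-labelled library kept 2729 at a median of 1502 UMIs, a UMI being 1 counted RNA molecule. They share 3 barcode sequences. Bicd2, the target, had 107 UMIs (19.7 CPM, UMIs of a gene per 1000000 UMIs, 16.2 to 23.9) in the shBicd2-labelled library, against 80 UMIs (16.4 CPM, 13 to 20.4) in the scramble-labelled one, so it was not lower where the label says it was targeted, and the libraries are named by their labels throughout. All intervals here are 95% and cover counting error only. Mitochondrial RNA was scarce, at a median of 0.359% and 0.187% of UMIs per barcode in the shBicd2-labelled and the scramble-labelled library, and whether the barcodes hold whole cells or nuclei was not tested. Barcodes were clustered without Rian, Mirg, Meg3 and EGFP. Clusters with no raised marker set and little mitochondrial RNA are called the main population, 2337 barcodes (79.5%) against 2109 (77.3%). Most clusters of the main population came almost wholly from 1 library, so library and cluster cannot be told apart. In the shBicd2-labelled library, 25 B cell-like barcodes carried hepatocyte marker RNA at 0.936 of the library's mean level. In the scramble-labelled library 40 such barcodes carried it at 0.871 of the mean level. Whether this was RNA free in the droplets (free RNA) or hepatocytes in the same barcodes was not tested. EGFP was at 1109 CPM in B cell-like barcodes of the shBicd2-labelled library. It was at 92.9 CPM in monocyte/macrophage-like ones and at 894 CPM over all barcodes of that library.

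Rian, Mirg and Meg3 were all higher in the shBicd2-labelled library, by 6.60-fold to 14.1-fold, ratios that depend on a few barcodes. Rian had 662 UMIs there, or 122 CPM (113 to 132), against 53 UMIs, or 10.8 CPM (8.12 to 14.2), in the scramble-labelled library, a ratio of 11.3 (8.52 to 15.2). Mirg had 282 UMIs, or 52.0 CPM (46.2 to 58.5), against 18 UMIs, or 3.68 CPM (2.18 to 5.82), a ratio of 14.1 (8.79 to 24.2). Meg3 had 2523 UMIs, or 466 CPM (448 to 484), against 345 UMIs, or 70.5 CPM (63.3 to 78.4), a ratio of 6.60 (5.90 to 7.41). Of 12942 genes with at least 10 UMIs, 12.7% were 2-fold or more higher in the shBicd2-labelled library and 4.65% lower, and since the RNAs were chosen on this contrast nothing is read from their 3 of 3. Without the 10 highest barcodes of each library the ratio over all barcodes was 23.5 for Rian, 10.9 for Mirg and 12.4 for Meg3. In the main population it was 24.9, 9.60 and 16.8. It was thus lower than with those barcodes for Mirg and higher for Rian and Meg3. Within the whole main population the ratios were 10.8 for Rian, 13.1 for Mirg and 6.76 for Meg3, with 13.1% of 12045 genes 2-fold or more higher and 4.42% lower.

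A UMI of any of the RNAs was found in few barcodes. Rian was seen in 131 of 2941 barcodes (4.45%, 3.74 to 5.26) of the shBicd2-labelled library, against 22 of 2729 (0.806%, 0.506 to 1.22) of the scramble-labelled one. Mirg was seen in 92 barcodes (3.13%) against 16 (0.586%), and Meg3 in 264 (8.98%) against 67 (2.46%). After thinning every barcode to 1000 UMIs, without the 851 and 754 barcodes below that depth, Rian was in 3.83% against 0.557%, Mirg in 2.49% against 0.456% and Meg3 in 6.27% against 1.27%. Other cell classes are set beside these shares, and whether their UMIs are free RNA or the cells' own was not tested. In monocyte/macrophage-like barcodes Rian and Mirg had 0 UMIs in the 80 of the shBicd2-labelled library, which allows a share of up to 3.75%, and 0 in the 74 of the scramble-labelled one, which allows up to 4.05%. Meg3 was in 5 of the 80 (6.25%, 2.06 to 14), each with 1 UMI, against 0 of the 74. Median depth of this class was 766 and 733 UMIs. Over all named classes other than hepatocyte, Rian was in 10 of 316 barcodes (3.16%) of the shBicd2-labelled library, against 2 of 302 (0.662%) of the scramble-labelled one, Mirg in 5 (1.58%) against 1 (0.331%), and Meg3 in 31 (9.81%) against 17 (5.63%). Mesothelial-like barcodes made up 12 of the 17 with Meg3 in the scramble-labelled library. Neutrophil-like barcodes held Rian and Mirg in 3 of 48 each (6.25%), and endothelial-like ones Rian in 3 of 31 (9.68%), both in the shBicd2-labelled library. The intervals of these shares overlap those of all barcodes, except for Meg3 in the scramble-labelled library. There the named classes other than hepatocyte were higher, at 5.63% (3.31 to 8.86) against 2.46% (1.91 to 3.11) over all barcodes. For none of the 3 RNAs is the share of barcodes with a UMI therefore read as a share of expressing cells. The text turns to barcodes with at least 2 UMIs of Rian, Mirg and Meg3 together, called member-bearing.

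**Figure D1:**
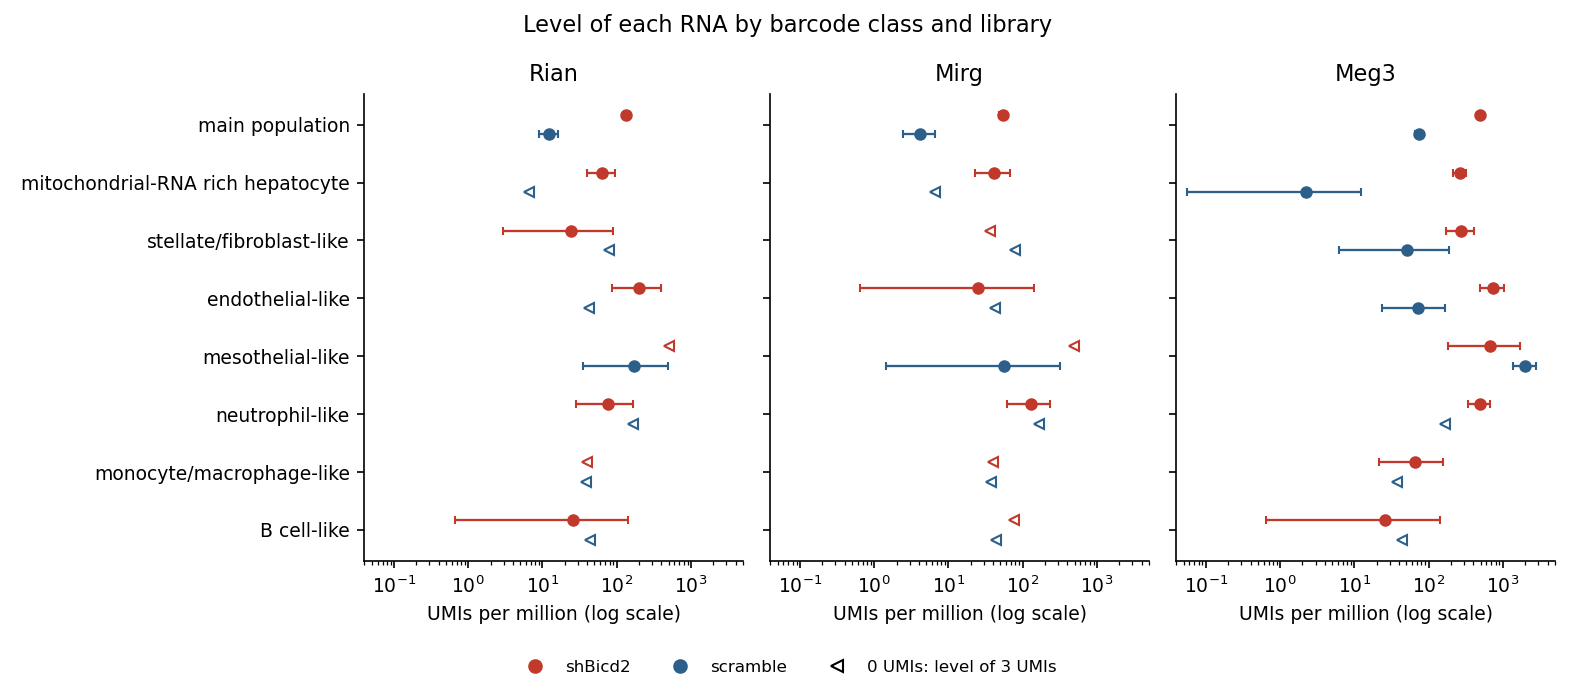
CPM of Rian, Mirg and Meg3 (log axes) in 8 barcode classes, shBicd2-labelled library in red above the scramble-labelled one in blue, with 95% counting intervals; open triangles stand at the level of 3 UMIs where none was counted. In the main population the red points lie to the right of the blue ones for all 3 RNAs.

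The RNAs sat in a small set of barcodes at high levels. In the main population 97 of 2337 barcodes (4.15%, 3.38 to 5.04) were member-bearing in the shBicd2-labelled library, against 27 of 2109 (1.28%, 0.845 to 1.86) in the scramble-labelled one, a ratio of shares of 3.24 (2.10 to 5.17). Such barcodes held a median of 19 UMIs of the RNAs (2 to 225) in the shBicd2-labelled library and 6.00 (2 to 48) in the scramble-labelled one, or 14386 against 5111 CPM. The excess thus had both a larger number of bearing barcodes and, by 2.81-fold (2.51 to 3.17), a higher level within them. Bearing barcodes had a median depth of 1874 UMIs in the shBicd2-labelled library and 1753 in the scramble-labelled one, and those with none of the RNAs 1640 and 1665.

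Most of the UMIs came from the few highest barcodes. Over the whole shBicd2-labelled library 29 barcodes with 40 or more UMIs of the RNAs, 0.986% of barcodes, held 62.2% of those UMIs, and 41 with 10 to 39 held a further 26.6%. The scramble-labelled library had 2 barcodes with 40 or more, holding 21.2%, and 7 with 10 to 39, holding 39.7%. Barcodes with a single UMI numbered 232 and 50. The 10 highest barcodes held 36.3% of Rian UMIs (lower limit 32.6) in the shBicd2-labelled library and 77.4% (63.8 to 87.7) in the scramble-labelled one, where far fewer UMIs were counted. The highest barcode held 40 UMIs of Rian, 22 of Mirg and 173 of Meg3 in the shBicd2-labelled library, against 9, 2 and 46 in the scramble-labelled one, each the maximum of its own RNA.

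**Figure D2:**
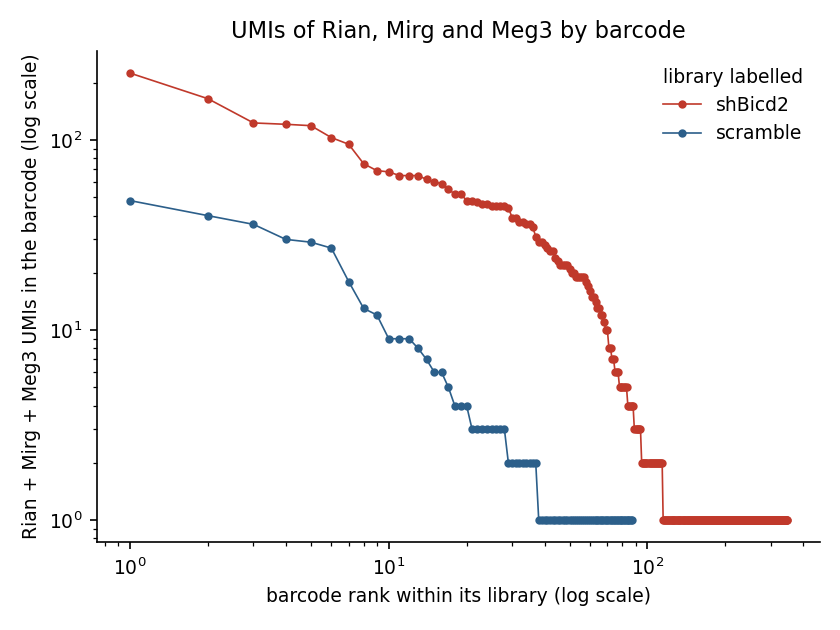
Summed UMIs of Rian, Mirg and Meg3 per barcode (log axis) against the barcode's rank in its library (log axis), for barcodes with at least 1 such UMI, shBicd2-labelled in red and scramble-labelled in blue. The red curve starts at 225 and the blue one at 48, and both end in a run of barcodes with 1 UMI.

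Few other genes were as concentrated. For each gene with at least 50 UMIs in the main population, the number of barcodes with a UMI was divided by the number that even sampling over barcodes at their depths gives, so that 1 means an even spread. Meg3 came to 0.157, Rian to 0.224 and Mirg to 0.346 in the shBicd2-labelled library, ranks 1, 2 and 5 of 7970 genes, whose median was 0.955. Beside them stood Hspa1a (0.311) and Hspa1b (0.317), heat shock proteins, and EGFP (0.387) was at rank 7. In the scramble-labelled library Meg3 (0.179) was again at rank 1, of 7183 genes, and Rian (0.406) at rank 6, while Mirg, with 17 UMIs there, was too low to be ranked. The same RNA thus headed the list in each library, at a Meg3 level that differed 6.76-fold.

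A barcode with 1 of the 3 RNAs was more likely to hold another, but most barcodes with a UMI held 1 RNA only. Of 346 such barcodes in the shBicd2-labelled library 179 held Meg3 alone, 50 Rian alone and 32 Mirg alone, while 56 (16.2%) held all 3. Of 87 in the scramble-labelled library 51 held Meg3 alone, 9 Rian alone and 11 Mirg alone, while 2 (2.30%) held all 3. Of 92 Mirg-bearing barcodes in the shBicd2-labelled library 60.9% (50.1 to 70.9) also held Rian, against 2.63% (2.08 to 3.29) of 2849 without Mirg. Of Rian-bearing barcodes 61.8% held Meg3, against 6.51% of those without Rian. Among barcodes of 1000 to 3000 UMIs, where depth differs less, these shares were 64.8% against 2.92% and 63.0% against 6.46%. Likewise 13 of 22 Rian-bearing barcodes (59.1%, 36.4 to 79.3) of the scramble-labelled library held Meg3, against 1.99% of the rest, and 2 of 16 Mirg-bearing ones (12.5%, 1.55 to 38.3) held Rian, against 0.737%. Of barcodes with at least 20 UMIs of the RNAs, 45 of 52 (86.5%) held all 3 in the shBicd2-labelled library and 2 of 6 in the scramble-labelled one. As a description over barcodes of the main population, which share library and depth, Pearson's r of log values was 0.73 for Rian with Mirg, 0.77 for Rian with Meg3 and 0.67 for Mirg with Meg3 (n = 2337, shBicd2-labelled), and 0.12, 0.52 and 0.18 (n = 2109, scramble-labelled).

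Summed over barcodes, the mixture of the RNAs differed a little between the libraries. Rian made up 19.1% of the UMIs of the RNAs (17.8 to 20.4) in the shBicd2-labelled library and 12.7% (9.69 to 16.3) in the scramble-labelled one. Mirg made up 8.13% (7.25 to 9.09) against 4.33% (2.58 to 6.75), and Meg3 72.8% (71.3 to 74.2) against 82.9% (79.0 to 86.4). These shares compare UMI counts of RNAs that differ in length and 3′ ends, so they say nothing of which RNA has more molecules. Within the shBicd2-labelled library the Rian share was alike in barcodes with 40 or more UMIs (19.8%), with 2 to 39 (17.4%) and with 1 (20.3%, 15.3 to 26.0). Among the 52 barcodes with at least 20 UMIs, Rian's share ran from 0 to 39.3% with a median of 19.1%, and Mirg's from 0 to 18.8% with a median of 6.90%. In the 6 such barcodes of the scramble-labelled library Rian's share ran from 4.17% to 22.5% with a median of 17.8%, so per barcode the Rian shares overlap.

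**Figure D3:**
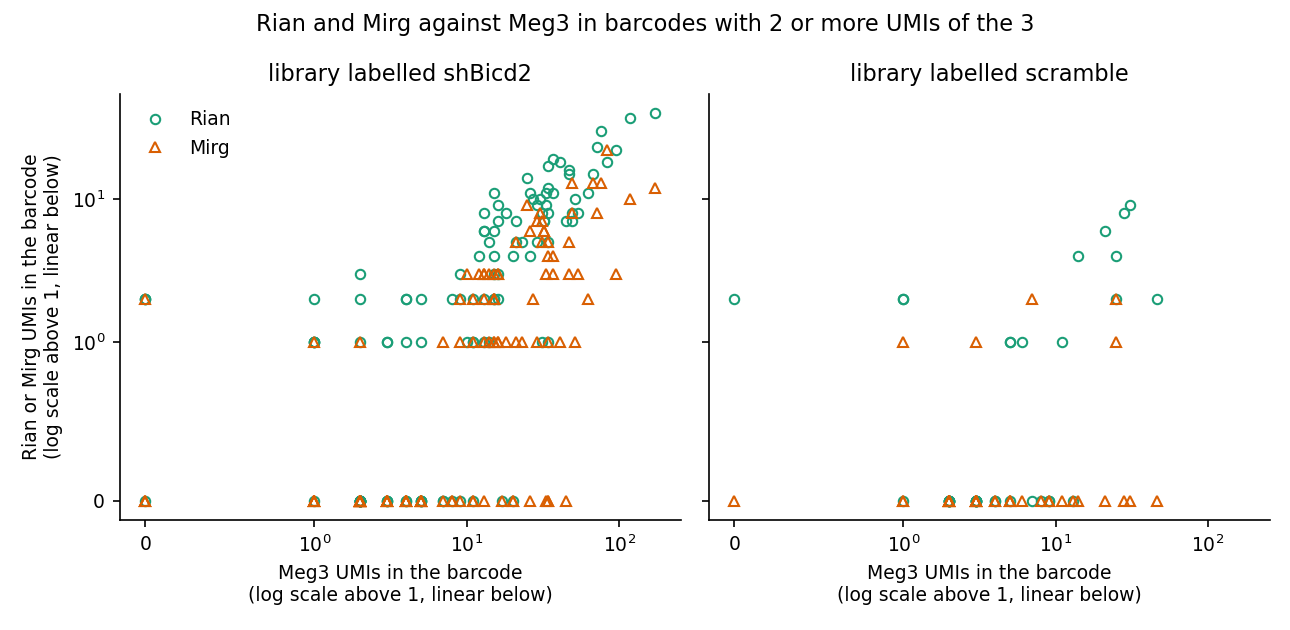
Rian (circles) and Mirg (triangles) UMIs against Meg3 UMIs per barcode, for barcodes with 2 or more UMIs of the 3 RNAs, shBicd2-labelled library on the left and scramble-labelled on the right (log axes above 1, linear below). Many barcodes high in Meg3 on the left are also high in Rian and Mirg, while some hold little or none of them. The right panel holds 37 barcodes against 114.

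Of the rest of the locus, one other RNA behaved likewise. B830012L14Rik, a long intergenic RNA between Rian and Mirg on the same strand (chr12:109695586-109702587), had 190 UMIs in the shBicd2-labelled library and 30 in the scramble-labelled one, a ratio of 5.72 (3.88 to 8.71). It was at 731 CPM in member-bearing barcodes of the main population and 6.23 CPM in member-free ones, those with no UMI of Rian, Mirg or Meg3, of the shBicd2-labelled library, a ratio of 117 (76.5 to 187). The same contrast in the scramble-labelled library was 267 against 2.54 CPM, a ratio of 105 (45.5 to 257). It was not among the genes used to choose the barcodes. The protein-coding genes of the locus were all but absent. Dlk1, a membrane protein of fetal and stem cells, had 5 UMIs in the shBicd2-labelled library and 0 in the scramble-labelled one, and Rtl1, a retrotransposon-derived gene on the strand opposite to the noncoding RNAs, had 0 in both. Dio3, which inactivates thyroid hormone, had 1 UMI in each, and its neighbour Dio3os had 2 against 1. None of these UMIs of Dlk1, Dio3 or Dio3os lay in a member-bearing barcode of the main population. Genes flanking the locus had smaller differences: Yy1, a transcription factor gene, was at 95.5 CPM in member-bearing and 136 CPM in member-free barcodes of the shBicd2-labelled library (ratio 0.702, 0.425 to 1.1), and Dync1h1, the dynein heavy chain, at 196 and 147 CPM (ratio 1.33, 0.944 to 1.83). Of 12 flanking genes measured there, 1 (Slc25a29, a mitochondrial carrier, on 3 UMIs) was 2-fold or more higher on a log2 scale with 0.5 UMI added, against 16.0% of all genes, and 3 were lower, against 9.35%: Wars, a tRNA synthetase (14.3 and 47.6 CPM), Tecpr2 (1 UMI in bearing barcodes), and Hsp90aa1, a heat shock gene (253 and 931 CPM).

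Most UMIs of the RNAs lay in the main population, with 619 of 662 Rian, 255 of 282 Mirg and 2325 of 2523 Meg3 UMIs in the shBicd2-labelled library, and 50 of 53, 17 of 18 and 300 of 345 in the scramble-labelled one. Per barcode the named classes other than hepatocyte were not lower throughout. Of their 316 barcodes 11 (3.48%, 1.75 to 6.14) were member-bearing in the shBicd2-labelled library. In the scramble-labelled one 10 of 302 (3.31%, 1.6 to 6.01) were, where the main population had 1.28%. Of those 10 barcodes 9 were mesothelial-like. Meg3 was at 272 CPM in all named classes other than hepatocyte of the shBicd2-labelled library, against 497 CPM in its main population. In the scramble-labelled library it was at 121 CPM in such classes, against 73.5 CPM in the main population. Of the 44 Meg3 UMIs behind the 121 CPM, 35 were in mesothelial-like barcodes. Cluster 3, with 482 barcodes of the shBicd2-labelled library and 3 of the other, held 76.7% of Rian, 72.7% of Mirg and 73.4% of Meg3 UMIs of the shBicd2-labelled library in 16.4% of its barcodes. Rian was at 454 CPM there and 67 barcodes (13.9%) were member-bearing. In the scramble-labelled library cluster 6, with 414 barcodes or 15.2%, held 81.1% of Rian, 44.4% of Mirg and 72.2% of Meg3 UMIs, and 22 barcodes (5.31%) were member-bearing, Rian being at 52.3 CPM. Beside the RNAs, cluster 3 is led by Slc25a30, G0s2, Gm15879, Plin2 and Itih2. Cluster 6 is led by Slc1a2, Gm9989, Nrp1, Slco1b2 and Fmo5, with Cyp2e1 and Glul further down its 10 leading genes. Clusters were built without Rian, Mirg and Meg3, although other genes that vary with them shaped the clusters. B830012L14Rik, of the same locus, was not excluded from the clustering, so the shares are not independent of the locus. Hepatocyte markers were at 20016 CPM in member-bearing and 18056 CPM in member-free barcodes of the shBicd2-labelled main population, with 0 of the 14 markers at 0 in either, and at 11825 and 12719 CPM in the scramble-labelled one. Several marker sets of other cell types were low in bearing and free barcodes alike of the shBicd2-labelled library. B cell markers were at 9.55 and 14.4 CPM, endothelial ones at 28.6 and 60.0, and stellate/fibroblast ones at 28.6 and 40.1. T cell markers were at 85.9 and 86.4 CPM, natural killer cell ones at 28.6 and 14.9, and monocyte/macrophage ones at 57.3 and 42.4. In bearing barcodes 10 of 12 B cell, 12 of 16 endothelial and 10 of 14 stellate/fibroblast markers were at 0 UMIs. Mesothelial and smooth muscle markers had 0 UMIs in all. Bearing barcodes held 209437 UMIs against 4014071 in free ones, so a marker at 0 there says little. Some markers that hepatocyte-type barcodes also carry were not low: neutrophil markers were at 3041 CPM in bearing and 2185 CPM in free barcodes of that library, plasma cell markers at 1203 and 732 CPM, and cholangiocyte markers at 1819 and 2379 CPM. In the scramble-labelled library these were at 1604 and 1485, 535 and 770, and 393 and 557 CPM. The part of these markers in the results was not tested.

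Other classes held few UMIs of the RNAs, often from single barcodes. Neutrophil-like barcodes of the shBicd2-labelled library had 38 Meg3 UMIs in 4 of 48 barcodes (486 CPM, 344 to 667; 26 in the highest), 10 of Mirg and 6 of Rian, against 0 of each in the 11 of the scramble-labelled library. Stellate/fibroblast-like barcodes had 22 Meg3 UMIs in 14 of 76 barcodes of the shBicd2-labelled library (269 CPM, 169 to 407), against 2 UMIs in 2 of 44 barcodes (51.9 CPM, 6.28 to 187) of the scramble-labelled library. Rian had 2 UMIs there and Mirg 0 in the shBicd2-labelled library, and both had 0 in the scramble-labelled one. The small mesothelial-like class went the other way: 4 Meg3 UMIs in 6 barcodes (665 CPM, 181 to 1704) in the shBicd2-labelled library, against 35 UMIs in 17 barcodes (1982 CPM, 1380 to 2756) in the scramble-labelled library, where 12 of the 17 barcodes held it and none held more than 8 UMIs. In endothelial-like barcodes of the shBicd2-labelled library all 29 Meg3 UMIs came from 1 of 31 barcodes while Rian was in 3, and in the scramble-labelled library all 5 came from 1 of 48. Natural killer cell-like barcodes held Rian in 2 and Meg3 in 1 of 19 in the shBicd2-labelled library, against 0 and 1 of 39. Barcodes rich in mitochondrial RNA come from different clusters in the libraries: 167 of 288 in the shBicd2-labelled library are in cluster 11, where hepatocyte markers are raised, against 48 of 318 in the scramble-labelled one, whose others are in clusters 13 and 15, led by mitochondrial genes alone or nearly so. They had Meg3 at 261 CPM (211 to 318) in the shBicd2-labelled library, with a maximum of 37 UMIs in a barcode, against 1 UMI in 318 barcodes (2.23 CPM, 0.0564 to 12.4) of the scramble-labelled one. Rian had 23 UMIs in 4 barcodes against 0, and Mirg 15 in 5 barcodes against 0, in this class. With 0 set to 3 UMIs these are 9.35-fold and 6.1-fold higher, and the lower limits of the ratio intervals are 7.01 and 4.38.

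All 3 RNAs were lower where EGFP was found, a contrast that was also known when they were chosen and is given as a description. EGFP itself had 4842 UMIs in 808 barcodes (27.5%) of the shBicd2-labelled library, against 339 in 167 barcodes (6.12%) of the scramble-labelled one. In the main population of the shBicd2-labelled library Rian was at 48.2 CPM in the 702 barcodes with an EGFP UMI, against 184 CPM in the 1635 without, a ratio of 0.262 (0.206 to 0.329). Mirg was at 18.5 against 76.8 CPM, a ratio of 0.241 (0.162 to 0.349), and Meg3 at 161 against 705 CPM, a ratio of 0.229 (0.201 to 0.259). In this comparison 19.3% of 11202 genes were 2-fold or more lower in EGFP-bearing barcodes and 5.70% higher, and the median log2 ratio of all genes was -0.46. The order over EGFP levels was not smooth. Meg3 was at 705 CPM with 0 EGFP UMIs, 348 CPM with 1, 19.8 CPM with 2 to 4 and 54.2 CPM with 5 or more, and Rian at 184, 96.3, 12.4 and 20.5 CPM. Only 4 of the 389 barcodes with 2 or more EGFP UMIs were member-bearing. Of barcodes with 10 or more UMIs of the RNAs, 6 of 65 (9.23%, 3.46 to 19) held an EGFP UMI in the shBicd2-labelled library and 0 of 9 in the scramble-labelled one.

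The EGFP contrast moved with the clusters. EGFP was highest in clusters 4, 8, 10 and 12 of the main population (1399 to 3272 CPM in the shBicd2-labelled library), which are led by heat shock, immediate early, interferon or chemokine genes, and was at 71.5 CPM in cluster 3. Without those clusters the ratios were 0.595 (0.452 to 0.773) for Rian, 0.487 (0.299 to 0.756) for Mirg and 0.572 (0.498 to 0.654) for Meg3. Within cluster 3 they were 0.440 (0.315 to 0.600), 0.474 (0.279 to 0.762) and 0.336 (0.278 to 0.403), from 73 EGFP-bearing and 409 EGFP-free barcodes. In cluster 9, led by genes of sterol synthesis such as Fdps and Mvd, they were 1.5 (0.759 to 2.77), 0.670 (0.128 to 2.23) and 1.80 (1.36 to 2.35), so for Meg3 the direction there was the opposite, over 38 and 240 barcodes of which 2 and 11 were member-bearing. The part of the clusters in the contrast was not tested further. In the scramble-labelled library, where 148 barcodes of the main population held EGFP, Meg3 was at 12.3 against 80.3 CPM (ratio 0.153, 0.0494 to 0.362), while Rian (0.787, 0.206 to 2.15) and Mirg (0.565, 0.0135 to 3.64) had intervals on both sides of 1. Detection of EGFP gave another picture: 34.6% held an EGFP UMI among main-population barcodes with any UMI of the RNAs and 29.4% among those with none in the shBicd2-labelled library. EGFP also had a UMI in 7 of 80 monocyte/macrophage-like barcodes of that library (8.75%, 3.59 to 17.2), each with 1 UMI. A lone EGFP UMI is therefore not read as a cell carrying it. B cell-like barcodes of that library held EGFP in 6 of 25 (24.0%, 9.36 to 45.1, at a median depth of 1444 UMIs). They held 43 EGFP UMIs in all, with a maximum of 17 in a barcode.

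**Figure D4:**
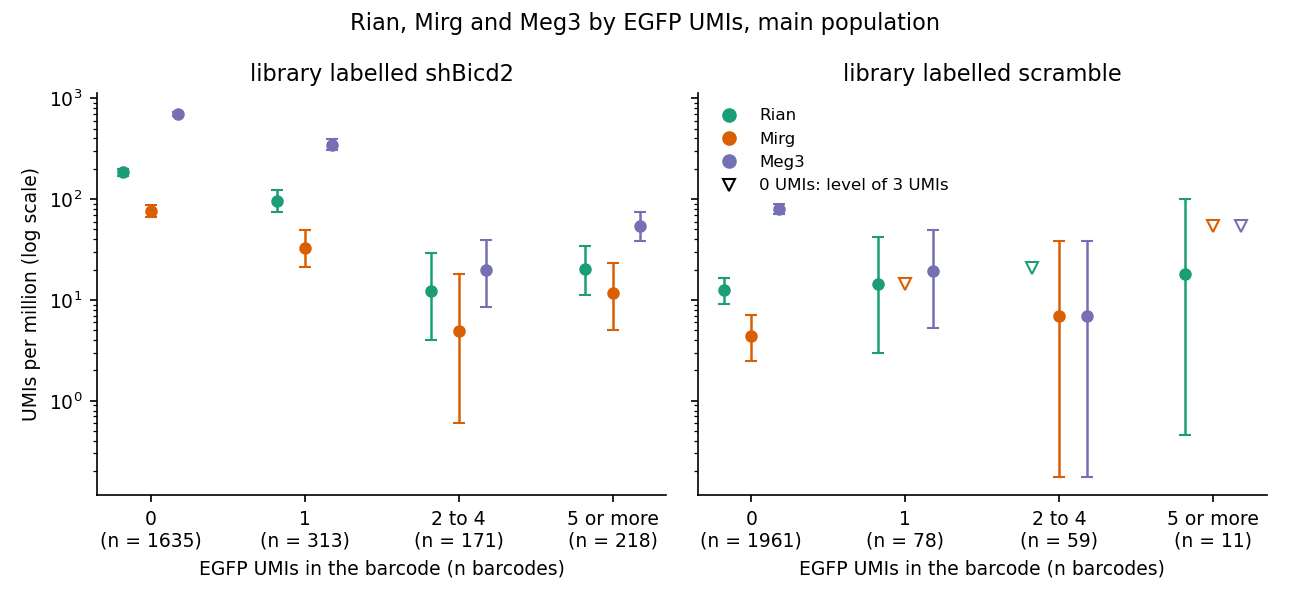
CPM of Rian, Mirg and Meg3 (log axis) in main-population barcodes by their number of EGFP UMIs, shBicd2-labelled library on the left and scramble-labelled on the right, with 95% counting intervals; open triangles stand at the level of 3 UMIs where none was counted. On the left Meg3 is at 705 with no EGFP UMI and at 54.2 with 5 or more.

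Member-bearing barcodes had more RNA of genes expressed around the central vein, in both libraries. Hepatocytes differ along the liver lobule: those near the central vein make glutamine and detoxify, while those near the portal vein run the urea cycle and make glucose. Slc1a2, a glutamate transporter, was at 158 CPM in member-bearing and 31.9 CPM in member-free barcodes of the shBicd2-labelled main population, a ratio of 4.94 (3.26 to 7.29), and at 975 and 64.2 CPM in the scramble-labelled one, a ratio of 15.2 (11.3 to 20.1). Oat, ornithine aminotransferase, was at 449 and 112 CPM (4.02, 3.18 to 5.03), and in the scramble-labelled library at 346 and 58.4 CPM (5.92, 3.64 to 9.19). Glul, glutamine synthetase, was at 353 and 118 CPM (3.00, 2.31 to 3.84), and in the scramble-labelled library at 1761 and 273 CPM (6.45, 5.26 to 7.85). Cyp2e1, a cytochrome P450 of alcohol oxidation, had ratios of 2.30 (1.76 to 2.98) and 2.78 (1.94 to 3.86). Cyp27a1, of bile acid synthesis, was 1.46-fold and 1.57-fold higher, and Cyp2c29 had ratios of 1.02 (0.481 to 1.92) and 2.08 (0.558 to 5.47). The barcodes behind each library's contrast share 1 sample, so these are 2 descriptions and not 2 replicates.

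Of 12 pericentral genes with at least 10 UMIs in the shBicd2-labelled main population, 8 were 2-fold or more higher in member-bearing barcodes. The share over all 11038 genes was 16.0%, both on a log2 scale with 0.5 UMI added. Over the 12, the interval lay above 1 in 5: Glul, Oat, Cyp2e1, Slc1a2 and Cyp27a1, the last of which is not among the 8. Of the 8, Slc1a4 and Rhbg rest on 2 UMIs each in bearing barcodes, and Slc1a4 has a CPM ratio of 1.67 (0.19 to 6.74). The scramble-labelled library had 9 of 11, against 28.4% of 10486 genes. Over the 11, the interval lay above 1 in the same 5 genes, of which Cyp27a1 is not among the 9. There 4 of the 9 rest on 2 or fewer UMIs in the bearing barcodes, which hold 63592 UMIs in all, and Cyp1a2, on 1 UMI, has a CPM ratio of 1.88 (0.0461 to 11.2). The median log2 ratio of the list was 1.21, beside 0.22 over all genes, in the shBicd2-labelled library, and 1.97 beside 0.46 in the scramble-labelled one (2.60 with the gene at 0 UMIs set to 3). Periportal genes went the other way. Of 14 measured, 5 were 2-fold or more lower in the shBicd2-labelled library, against 9.35% of all genes, and 7 in the scramble-labelled one, against 8.33%, with medians of -0.79 and -1.12 (-0.85 with the genes at 0 UMIs set to 3). Hsd17b13, a lipid droplet enzyme, was at 38.2 and 269 CPM (0.142, 0.0611 to 0.280) and at 31.5 and 165 CPM (0.191, 0.0231 to 0.693). Hal, which degrades histidine, had 2 UMIs in bearing and 339 in free barcodes of the shBicd2-labelled library (0.113, 0.0136 to 0.412) and 0 and 151 in the scramble-labelled one. Sds, serine dehydratase, had ratios of 0.302 and 0.260, Arg1 of the urea cycle 0.564 and 0.325, and Pck1 of gluconeogenesis 0.688 and 0.588. Hpx and Asl were alike in bearing and free barcodes of the shBicd2-labelled library (0.993, 0.931 to 1.06, and 1.0, 0.830 to 1.21). Seen from the genes, 24.7% (16.2 to 35.0) of barcodes with a Slc1a2 UMI were member-bearing, against 3.34% (2.63 to 4.16) of those without, in the shBicd2-labelled library, and 13.1% (8.17 to 19.5) against 0.358% (0.144 to 0.736) in the scramble-labelled one. With barcodes thinned to 1000 UMIs, a UMI of any of the RNAs was in 33.3% against 7.44% and in 16.3% against 1.14% for Slc1a2. At this depth the contrast was smaller for Glul, Oat and Cyp2e1 in both libraries. For Cyp2e1 the shares were 10.7% against 7.79% and 4.63% against 1.49%. For the periportal gene Cps1 they were close, at 7.50% against 8.42% and 1.22% against 2.11%. Hsd17b13 was at 3.74% against 9.14%, but at 2.24% against 1.94% in the scramble-labelled library.

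**Figure D5:**
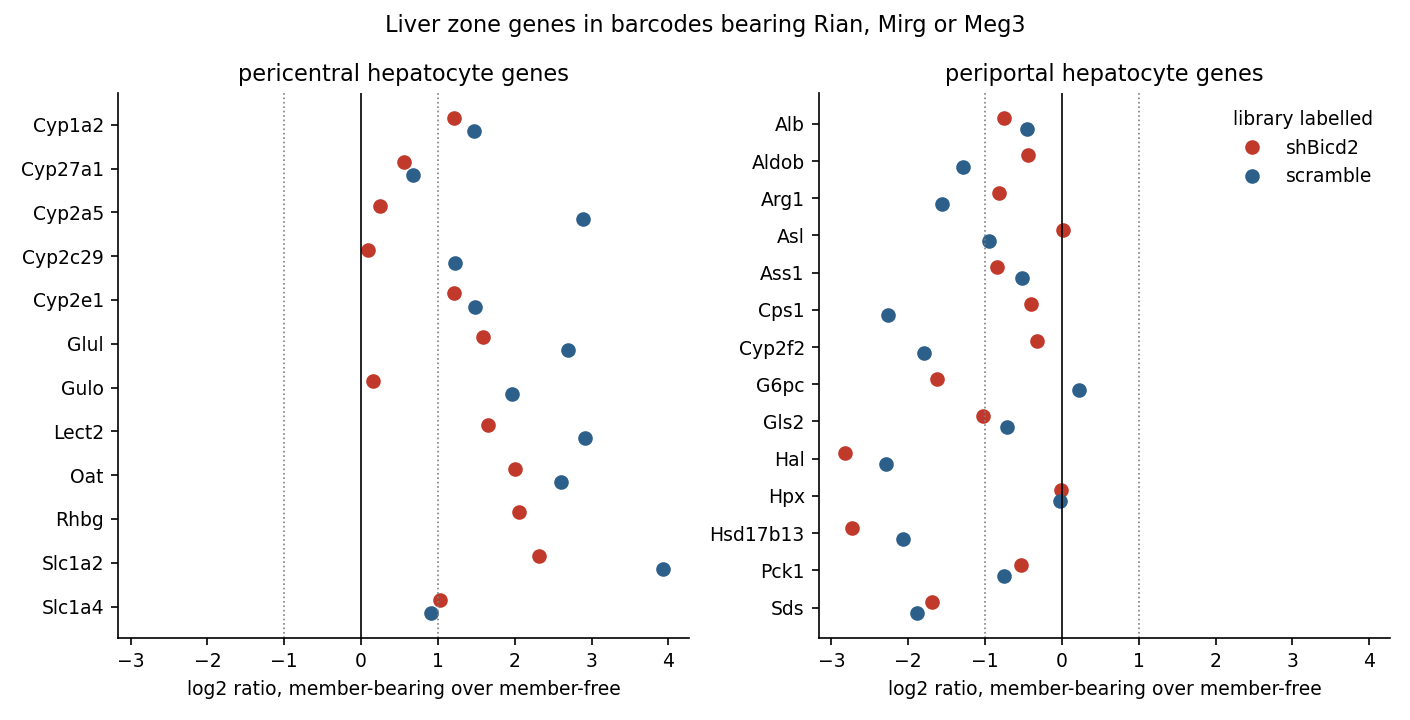
Log2 ratio of CPM, member-bearing over member-free barcodes of the main population, for pericentral (left) and periportal (right) genes with at least 10 UMIs, shBicd2-labelled library in red above scramble-labelled in blue; dotted lines mark 2-fold, and 0.5 UMI was added to each count. Every pericentral point lies right of 0, for Slc1a4 in the scramble-labelled library only through the 0.5 UMI added to 0, while all but 2 periportal points lie at or left of it.

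Many immediate early and heat shock genes were lower in member-bearing barcodes, while other stress lists differed between the libraries. Of 17 immediate early and heat shock genes measured, 11 were 2-fold or more lower in the shBicd2-labelled library (median log2 ratio -1.47), against 9.35% of all genes, and none higher. In the scramble-labelled library 6 were lower, against 8.33% of all genes, 2 of them on 0 UMIs in bearing barcodes, and 1 was higher, Hspd1 (1.97, 0.783 to 4.13; median -0.79, or -0.46 with the genes at 0 UMIs set to 3). Jund, a subunit of the AP-1 factor, was at 688 and 1971 CPM in bearing and free barcodes of the shBicd2-labelled library (0.349, 0.294 to 0.411) and at 299 and 872 CPM in the scramble-labelled one (0.343, 0.206 to 0.536). Junb had ratios of 0.459 and 0.554, Jun 0.359 and 0.478, and Ier3 1.03 (0.879 to 1.19) and 1.17 (0.853 to 1.57). Targets of p53 had medians of -0.70 and -0.37, the latter being 0.31 with the genes at 0 UMIs set to 3. Among them Btg2, which slows proliferation, was at ratios of 0.413 (0.340 to 0.497) and 0.481 (0.338 to 0.664). Type I interferon response genes had medians of -0.77 and 0.43, with 7 and 4 of 18 genes 2-fold or more lower, against 9.35% and 8.33% of all genes, and 0 and 6 higher, against 16.0% and 28.4%. Rsad2, an antiviral enzyme, was at ratios of 0.372 and 0.388, and Ifit1 at 0.36 and 0.252. Irf7, a factor that drives interferon genes, went opposite ways, at 0.458 (0.167 to 1.01) and 2.02 (1.03 to 3.57), and Ifit3, Oasl1, Ddx58 and Ifih1 were at 2.21 to 2.71 in the scramble-labelled library with intervals above 1. Oxidative stress genes had medians of -0.22 and 0.42, or 0.21 and 0.99 with the gene at 0 UMIs in each library set to 3. Mt1, a metallothionein, had ratios of 0.703 (0.666 to 0.742) and 0.681 (0.607 to 0.762). Lipid storage genes had medians of 0.00 and 0.41, with Plin2, the lipid droplet coat protein, 1.75-fold (1.53 to 2.0) and 2.77-fold (1.5 to 4.72) higher.

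Other imprinted genes were called at about the rate of all genes. Of 23 measured in the shBicd2-labelled library 4 were 2-fold or more higher in bearing barcodes, against 16.0% of all genes. There 3 were lower, against 9.35%. The median log2 ratio was -0.01, or 0.63 with the genes at 0 UMIs set to 3. Over all 23 the interval lay above 1 in 4 and below 1 in 0. Of the 4 called higher, Slc22a18 (0.675 to 7.53) and Copg2 (0.551 to 5.94) had intervals on both sides of 1. Of 19 in the scramble-labelled library 5 were higher, against 28.4%, of which 4 rest on 2 or fewer UMIs in bearing barcodes. There 1 was lower, against 8.33%. The median was 0.26, or 1.39 with the genes at 0 UMIs set to 3. Slc22a3, an organic cation transporter, stood out among the imprinted genes once values were seen, at 33.4 and 4.73 CPM in the shBicd2-labelled library (7.06, 2.51 to 17.5) but on 1 UMI in bearing barcodes of the scramble-labelled one. Kcnq1ot1, the noncoding RNA of another imprinted cluster, was at 1490 and 962 CPM (1.55, 1.38 to 1.74), and in the scramble-labelled library at 1588 and 1501 CPM (1.06, 0.861 to 1.29). Between the libraries Kcnq1ot1 was at 969 CPM in the shBicd2-labelled main population and 1494 CPM in the scramble-labelled one (0.648, 0.624 to 0.674), the direction opposite to that of Meg3. Malat1, an abundant nuclear RNA, was at ratios of 1.07 (1.04 to 1.1) and 0.974 (0.934 to 1.01) in bearing over free barcodes, and Neat1, the paraspeckle RNA, at 0.593 and 0.717. Of 14 nuclear noncoding RNAs in each library 2 and 3 were 2-fold or more higher, against 16.0% and 28.4% of all genes, and 1 and 1 lower, with medians of 0.39 and 0.08. The interval lay above 1 for 6 of them in the shBicd2-labelled library and 2 in the scramble-labelled one, and below 1 for 1 in each. Snhg11, a small nucleolar RNA host gene, was higher in both (2.52, 1.29 to 4.5, and 3.14, 1.33 to 6.33), Snhg14, of the imprinted Snrpn region, was at 2.02 (1.01 to 3.66) and at 0 UMIs in bearing barcodes, and Dleu2, a microRNA host, was at 1.27 (0.976 to 1.63) and 2.19 (1.38 to 3.32). Of 15 imprint and chromatin regulators measured, 0 were 2-fold or more higher in either library, against 16.0% and 28.4% of all genes, while 0 and 3 were lower, against 9.35% and 8.33%. The 3 rest on 0 UMIs of Dnmt1, 0 of Ctcf and 1 of Suz12 in bearing barcodes. Zfp445, a zinc finger protein that maintains imprints, was at ratios of 1.34 (1.08 to 1.64) and 1.5 (1.07 to 2.03), and Dnmt3a, a DNA methyltransferase, at 1.05 (0.636 to 1.65) and 1.56 (0.567 to 3.45). The 9 microRNA processing genes had medians of 0.62 and -0.24, the latter being 0.08 with the genes at 0 UMIs set to 3. Dicer1 was at ratios of 1.51 (0.955 to 2.29) and 0.962 (0.310 to 2.27). Cell cycle genes were too few in UMIs to compare, with 5 of the 9 measured at 0 UMIs in bearing barcodes of the shBicd2-labelled library and 5 of 7 in the scramble-labelled one. Of the oncofetal and liver tumour genes only 3 of 15 could be measured in either library. Lcn2, an acute-phase protein, was at ratios of 1.40 (1.29 to 1.53) and 1.11 (0.904 to 1.35). Sox9 went the other way in the shBicd2-labelled library, at 14.3 and 50.8 CPM (0.282, 0.0576 to 0.835), on 3 UMIs in bearing barcodes.

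Genes most like the RNAs over barcodes were ranked by Pearson's r between log values of a gene and of the 3 RNAs summed, in the main population of the shBicd2-labelled library (n = 2337 barcodes, which share library and depth). B830012L14Rik came first at r = 0.59, and at 0.36 in the scramble-labelled library (n = 2109). All other r were weak, at most 0.17, the value of Sgms1, sphingomyelin synthase, and of Mup17, a major urinary protein. Oat followed at 0.16, then Cald1, Slc1a2, Mylk, Cyp2d9 and Pctp at 0.13 to 0.14. The 99th percentile over 7967 genes was 0.09. Over scramble-labelled barcodes the r of Slc1a2 was 0.29 and of Oat 0.16, while Cald1 had 0.01 and Pctp -0.01. Sgms1 was at 420 and 97.7 CPM in bearing and free barcodes of the shBicd2-labelled library and at 377 and 96.0 CPM in the scramble-labelled one, with ratios of 4.30 (3.37 to 5.43) and 3.93 (2.49 to 5.94). In sparse counts such weak correlations are a way to pick genes and no finding.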

How the data were processed

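UMI counts per gene and barcode were used as the authors deposited them, with no normalization. Cell Ranger 6.1.2 is named per the file headers, and Cell Ranger 6.0.1, Seurat 4.0.3 and mm10 per the submitters' processing notes. The sources used here do not give how intron reads were handled. Groups follow the sample labels. Rian, Mirg, Meg3 and all gene lists were chosen with earlier results of these data known.

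Kept barcodes had 200 genes or more and no more than 25% of UMIs from mitochondrial genes, and Scrublet (scanpy 1.11.5) scores removed 73 and 62 doublets from the shBicd2-labelled and the scramble-labelled library, at 0.8% per 1000 barcodes. Clustering used 2000 variable genes without Rian, Mirg, Meg3, EGFP and GFP, 30 components, 15 neighbours and leidenalg 0.10.2 at resolution 2.0, then 1.0 within clusters of mixed markers, both set after seeing the data, and gave 24 clusters. Names needed at least 3 markers and 40% of a set raised by 1 log2 unit. UMIs were summed per library and class and divided by their total (CPM). Intervals at 95% are Poisson for levels, Clopper-Pearson for shares and conditional binomial for ratios, all exact, and no p-value was computed since barcodes are not replicates. A count of 0 allows 3. Log2 ratios had 0.5 UMI added, on genes with at least 10 UMIs. Genes were named as the 5 with the most UMIs of each list, all of the locus list, and the 10 highest r, of which 1 gene is not reported here. Pericentral and periportal genes beyond these, flanking genes and markers were named after their values were seen. Python 3.11.15, numpy 2.4.6, scipy 1.17.1, pandas 2.3.3 and, for TMM, edgeR 4.0.16 were used. Intervals, the evenness measure and the ranking by r were tested on simulated data. Alternatives are given in the closing section.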

Additional observations from a re-analysis of the deposited data

Results flagged for a closer look

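Barcodes removed by the filters of the shBicd2-labelled library held 161 UMIs of Rian, Mirg and Meg3 in 97 barcodes, a signal in data the comparisons do not use and above the 2 UMIs in the 76 removed from the scramble-labelled library. All 161 were in the 73 barcodes removed as doublets, of which 5 had at least 2 such UMIs, at 874 CPM. The ratios with those barcodes kept are among the alternatives given with the processing.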

How the results depend on the processing

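No paired analysis was possible because each group is 1 library. Over 167 alternative values of 24 results, none of the ratios changed direction. Shares of barcodes, the share of UMIs in the highest barcodes, co-detection and counts of zone genes have no direction that could change. The zone gene results and their alternatives were chosen after seeing the data, and the counts of zone genes stayed within 1.5 times. Without the 10 highest barcodes of each library the ratio between libraries was 23.5 for Rian and 12.4 for Meg3 over all barcodes. It was 24.9 and 16.8 in the main population, since these barcodes hold more of the Rian and Meg3 UMIs in the scramble-labelled library. Mirg's ratio went the other way, to 10.9 over all barcodes and 9.60 in the main population. Restricted to barcodes without EGFP, Meg3's ratio was 8.41 over all barcodes and 8.78 in the main population, and with free RNA subtracted it was 10.2 there; over all barcodes that subtraction cancels. Thinned to 1000 UMIs, Mirg's main-population ratio was 7.94, and shares of barcodes were 2.49% for Mirg and 6.27% for Meg3. EGFP-bearing over EGFP-free ratios were 0.191, 0.0968 and 0.0914 for Rian, Mirg and Meg3 after thinning, and 0.0988, 0.148 and 0.0646 with 3 or more EGFP UMIs. Without the 10 highest barcodes they were 0.205 for Rian and 0.181 for Meg3; Meg3's was 0.165 over all deposited barcodes and 0.172 at 5% mitochondrial UMIs. The highest 1% of barcodes held 67.7% of Rian, and 93.0% of barcodes with 2 Mirg UMIs held 2 of Rian. Beyond what thinning and the lower counts show, the causes were not tested. Single-gene ratios of Glul, Slc1a2 and Oat moved past their intervals in 5 alternatives and stayed above 1. TMM scaling shifted all genes by -0.16 on the log2 scale over all barcodes, and the 6 ratios between libraries kept their direction.

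With 18 Mirg UMIs in the scramble-labelled library, levels there are known only within wide intervals, and classes under 50 barcodes hold few UMIs. A single library per group leaves mouse, preparation and virus dose confounded with the hairpin, which cannot be told apart.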
